A study of Mus musculus with 13 samples.

Results

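The tissue described here is the embryonic mouse trachea at E11.5 in which a repressor form of the transcription factor Gli3 was switched on, set against tracheas of the same stage in which it was not. The libraries were chosen by their labels and by no measured value: 7 of the 13 libraries of the study are E11.5 trachea, 4 of them *Foxg1Cre;Gli3TFlag/+* mutants and 3 *Gli3TFlag/+* controls, and every gene with enough counts was examined. The other 6 libraries are E10.5 foregut and entered only 1 alternative fit. All 7 tracheas carried 1 copy of the *Gli3TFlag* transgene, a Cre-dependent allele encoding a truncated Gli3 that acts as a repressor, so the groups differ by the *Foxg1Cre* driver and by the transgene it activates. *Foxg1Cre* is a knock-in driver, and it recombines in the early foregut epithelium and in the mesoderm around it, so the repressor was not restricted to 1 tissue layer. The labels give the strain as C57BL/6, whereas the methods of the study describe an outbred background. No label gives a litter or a dissection date, and the p-values below measure the spread between these 7 samples.

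In Hedgehog signaling, a ligand made by the foregut epithelium acts on the surrounding mesenchyme, where Gli transcription factors either activate or repress target genes. Without the signal, Gli3 is processed into a repressor, so a constitutive Gli3 repressor holds targets down in cells that receive ligand. In the trachea, Hedgehog-responsive mesenchyme is the source of the cartilage that keeps the airway open, of smooth muscle and of connective tissue.

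The libraries held 13606429, 14022530, 15916434 and 9646701 counts in the 4 mutants and 12547575, 13925677 and 13904995 counts in the 3 controls. *Gli3* itself, whose reads come from the endogenous gene and the transgene together, stood at 226, 207, 211 and 190 TPM (transcript abundance corrected for length and depth) in the mutants, against 117, 78.8 and 80.4 TPM in the controls. The groups did not overlap (log2 fold change 0.87, adjusted p = 0.0102 by the edgeR quasi-likelihood test with Benjamini-Hochberg adjustment), although the adjusted p was up to 0.076 without control replicate 2 or 3. The respiratory epithelial factor *Nkx2-1* was present in every library (21.6 to 38.8 TPM in mutants, 19 to 28.8 TPM in controls), as was *Tbx5*, a factor of the respiratory mesenchyme. *Xist* exceeded 100 CPM (counts scaled for library size) in mutant replicates 3 and 4 and in control replicate 1.

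Control replicate 1 stood apart from the other controls. Across 11676 genes its Pearson correlation of log2 CPM was 0.955 and 0.956 with the other 2 controls, and 0.954 to 0.966 with the mutants. Control replicates 2 and 3 correlated with each other at 0.984. Of 9869 well-expressed genes, 266 differed at least 2-fold on the log2 CPM scale between control replicate 1 and the mean of the other controls, against 32 to 125 for each mutant and 64 and 118 for the other controls. It also differed by transcript length. For genes whose longest annotated transcript exceeds 8 kb, control replicate 1 had a median log2 ratio of 0.42 to the other controls, and for genes under 1 kb the median was -0.26. The median log2 difference of the mutants from control replicate 1 was 0.00 above 8 kb, whereas from control replicates 2 and 3 it was 0.43 above 8 kb and -0.20 under 1 kb. With a trend on transcript length removed from every library, 115 genes were called higher and 52 lower, and 101 and 44 of these were among the genes called without that step.

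**Figure D1:**
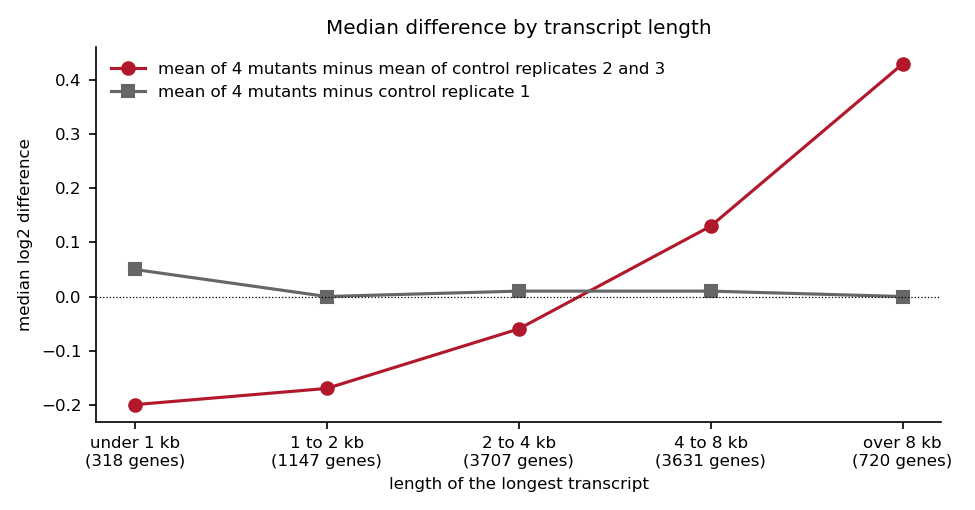
Median log2 difference in CPM between the mean of the 4 mutant tracheas and the controls (y axis) in 5 classes of genes by the length of their longest annotated transcript (x axis). Against control replicates 2 and 3 (circles) the median climbed to 0.43 for transcripts over 8 kb, while against control replicate 1 (squares) it stayed between 0.00 and 0.05.

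Of 32793 rows in the count table, 15376 had enough counts to be tested. With thresholds of a log2 fold change of at least 1 and an adjusted p of at most 0.05, 130 genes were higher in the mutant tracheas (0.845% of those tested) and 63 were lower (0.410%). By the adjusted p alone 279 genes were higher (1.81%) and 106 were lower (0.689%), and these shares are the background against which the gene lists below are read. The mutant and control libraries did not overlap for 192 of the 193 called genes, against 16.7% of all genes tested, and the exception was *Mir17hg*. A call and a lack of overlap are read from the same values, so this count is no separate support for the calls. The median log2 fold change over all genes was -0.01 and 48.6% of genes lay above 0. Leaving out control replicate 1 raised the counts to 327 higher and 192 lower, leaving out control replicate 3 lowered them to 35 and 15, and leaving out control replicate 2 lowered them to 59 and 15. The fit without control replicate 1 has no control with a female pattern, and the part of sex in its counts was not tested. Without mutant replicate 1, 2, 3 or 4 the counts were 77, 98, 86 and 78 higher and 22, 39, 25 and 46 lower. A core of 31 higher and 11 lower genes was called in the full comparison and in all 7 comparisons without 1 library, and 18 and 10 of these were called in the 14 other fits as well. In bulk tissue, a change in the share of a cell type and a change of RNA per cell cannot be told apart, and this holds for every gene below. For single genes and for members of gene lists, a gene is said to rise or fall by its adjusted p alone.

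**Figure D2:**
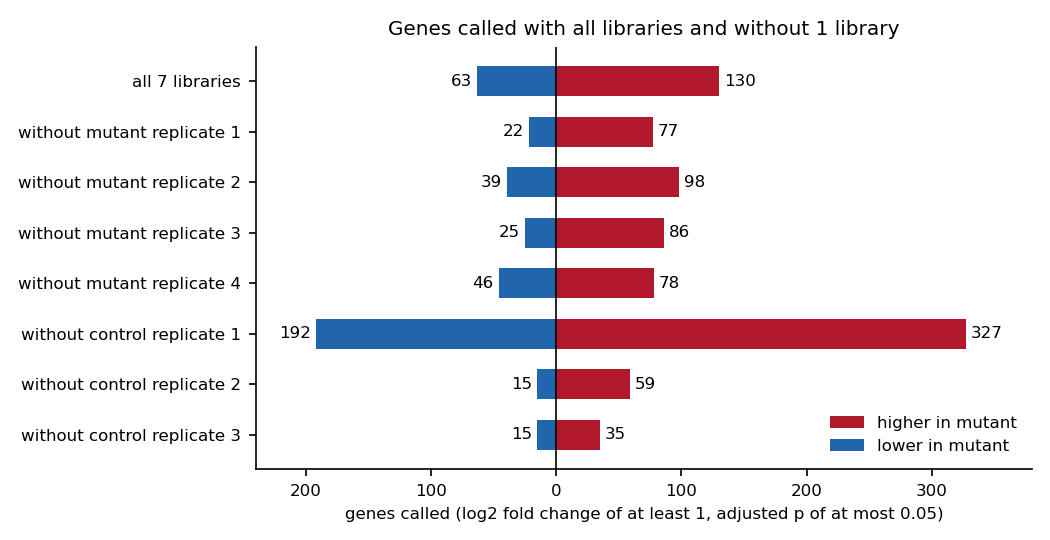
Number of genes called higher (right, red) and lower (left, blue) in the mutant trachea with all 7 libraries and without each library in turn (rows). The counts ran from 35 to 327 higher and from 15 to 192 lower, and both maxima came without control replicate 1.

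Homeobox factors best known from the limb and the face rose. *Msx2*, a repressor homeobox factor and a textbook target of bone morphogenetic protein (BMP) signals, stood at 64.5, 52.7, 53.3 and 57.0 CPM in the mutants, against 8.20, 9.70 and 8.74 CPM in the controls. *Alx4*, which patterns the skull vault and the limb, stood at 33.6, 28, 34.7 and 33 CPM in the mutants, against 5.12, 6.65 and 6.58 CPM in the controls. For both genes every mutant was more than 4-fold above every control, and these were the 2 smallest adjusted p-values over all 15376 genes (*Msx2*, log2 fold change 2.68, SE 0.132, adjusted p = 5.39e-06; *Alx4*, 2.40, SE 0.161, adjusted p = 7.54e-05; edgeR). *Pitx1*, which specifies the hindlimb, had 109 counts over the mutants and 1 count over the controls, a depth-corrected ratio of 86.1 (95% exact binomial interval for counting error only, 15.1 to 3430), and its call was lost without control replicate 3 (adjusted p = 0.0591). The genes are at chr13:53466884-53473074 (*Msx2*), chr2:93642384-93681339 (*Alx4*) and chr13:55825051-55836192 (*Pitx1*) on mm10.

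Of 18 tested genes of a list of limb and craniofacial homeobox factors, 6 rose and none fell (median log2 fold change 0.80), against 1.81% of all genes. Another was *Prrx1*, a marker of limb and facial mesenchyme, at 140 to 189 CPM in mutants and 90.7 to 109 CPM in controls, with an adjusted p of up to 0.132 without control replicate 2 or 3 or mutant replicate 1, 2 or 4. *Msx1*, the close relative of *Msx2*, averaged a log2 fold change of 0.65 (adjusted p = 0.418) and *Prrx2* 0.11 (adjusted p = 0.725). *Shox2* and *Dlx5* had log2 fold changes of 1.59 and 1.76 that did not pass the test (adjusted p = 0.0713 and 0.0862). The count of members called was 10 without control replicate 1 and 4 to 6 without any other library. Outside the list, the homeobox gene *En1*, a limb and midbrain factor, had 44 counts over the mutants and 1 over the controls, a depth-corrected ratio of 34.8 (95% exact interval 5.92 to 1400), and its call held only without control replicate 1 or mutant replicate 3. It was lost without control replicate 2 or 3 (adjusted p up to 0.165), and without mutant replicate 1, 2 or 4 it had too few counts to be tested. None of 13 tested Hox genes passed the edgeR test (3 had an unadjusted p under 0.05), while DESeq2 called 2 higher, the fit without control replicate 1 called 1 and limma-voom none.

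**Figure D3:**
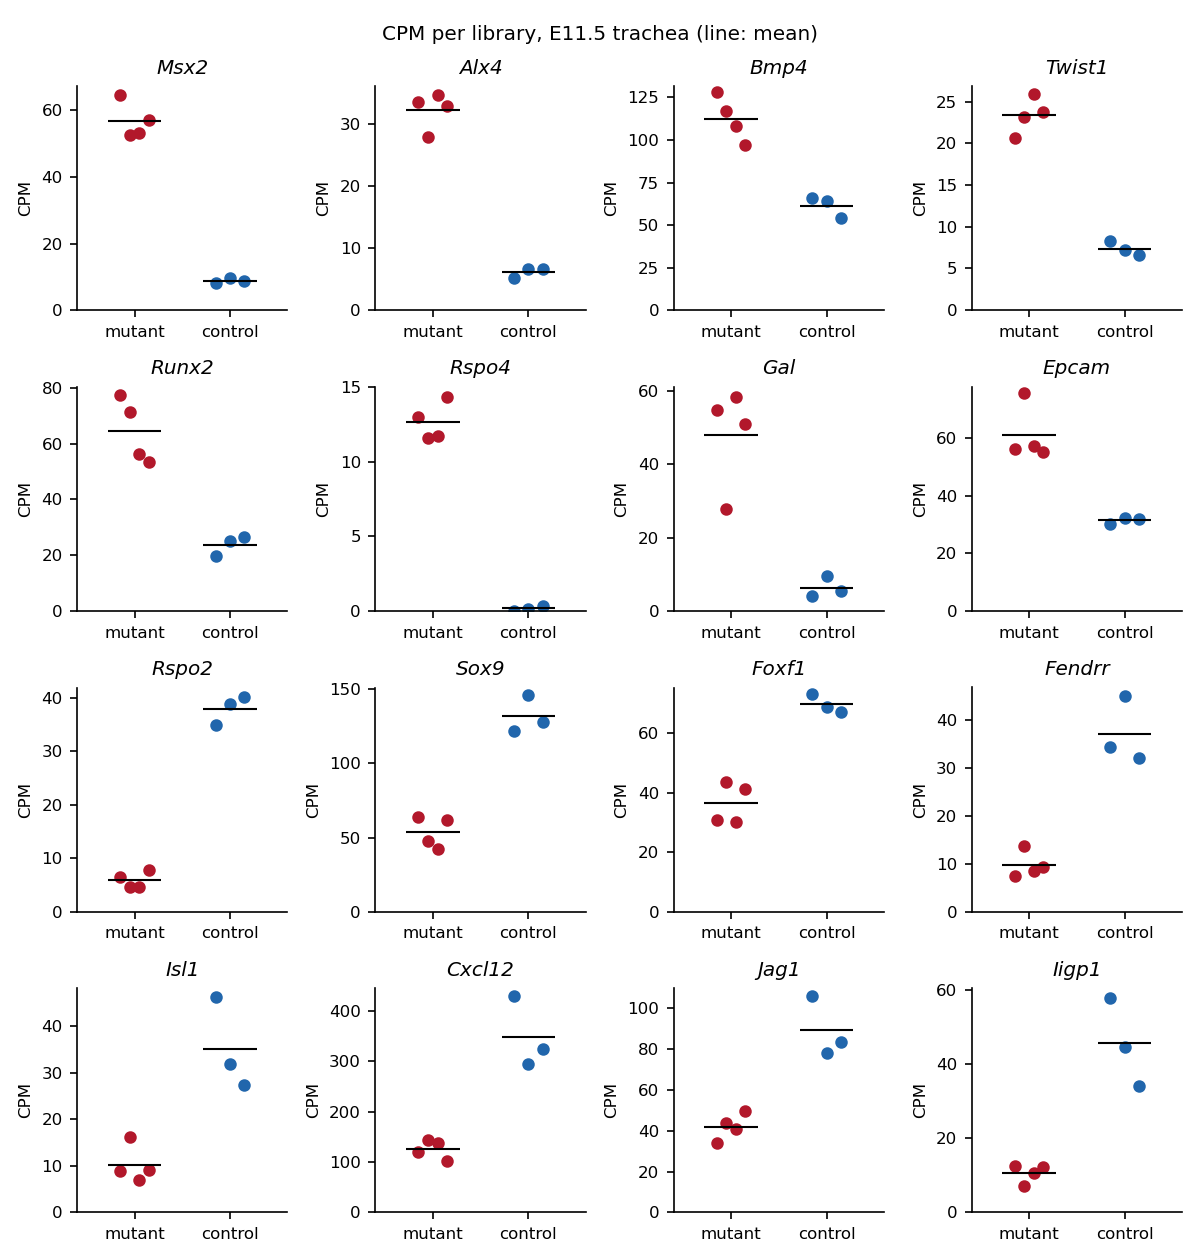
CPM of 16 genes named in the text (y axes, from 0) in the 4 mutant (left, red) and 3 control (right, blue) tracheas, with 1 point per library and a line at the mean. In each panel the 2 groups do not overlap, which was a condition for naming some of these genes. Means were 56.9 against 8.88 CPM for *Msx2* and 5.92 against 37.9 CPM for *Rspo2*.

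The genes that fell included factors of the foregut mesenchyme. *Fendrr*, a long noncoding RNA of the lateral plate, stood at 7.47, 13.8, 8.59 and 9.38 CPM in the mutants, against 34.5, 45.0 and 32.2 CPM in the controls (log2 fold change -1.92, SE 0.210, adjusted p = 0.00146). It starts 1276 bases from *Foxf1*, on the other strand of chromosome 8. *Foxf1*, a forkhead factor and a Hedgehog target of the gut mesenchyme, fell less, to 36.5 ± 7.04 CPM in the mutants, against 69.8 ± 3.17 CPM in the controls (SD, n = 4 and 3; log2 fold change -0.94, SE 0.142, adjusted p = 0.00875 by edgeR). *Isl1*, a LIM homeobox factor of the pharyngeal and ventral foregut mesoderm, lay between 6.86 and 16.1 CPM in mutants and between 27.4 and 46.2 CPM in controls. The calls of these 3 genes held without any single library. The basic helix-loop-helix factor *Msc* was lower as well, at 0.618 to 1.57 CPM in mutants and 4.64 to 6.15 CPM in controls, and lost its call without control replicate 3 (adjusted p = 0.0562).

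In the opposite direction, *Twist1*, a helix-loop-helix factor that keeps mesenchyme undifferentiated, stood at 20.6, 23.1, 25.9 and 23.8 CPM in the mutants, against 8.28, 7.21 and 6.64 CPM in the controls (log2 fold change 1.66, SE 0.159, adjusted p = 0.000889). *Gata4* rose from the same list, to 35.3 to 51.3 CPM in mutants against 19.9 to 26.2 CPM in controls, with an adjusted p of up to 0.111 without control replicate 2, control replicate 3 or mutant replicate 1. Over 23 tested foregut and respiratory mesenchyme factors, 2 rose and 3 fell (median log2 fold change -0.31). The respiratory T-box genes did not pass the test: *Tbx4* lay between 19.4 and 41.0 CPM in mutants and between 45.5 and 75.5 CPM in controls (adjusted p = 0.0686), and *Tbx5* overlapped between the groups (adjusted p = 0.394). The number of members that fell was 6 without control replicate 1 and 2 without control replicate 3.

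Genes of the skeletal lineages moved in both directions. *Sox9*, which specifies chondrocytes, stood at 63.6, 47.9, 42.1 and 62.1 CPM in the mutants, against 122, 146 and 128 CPM in the controls (log2 fold change -1.29, SE 0.147, adjusted p = 0.00168). *Runx2*, which specifies bone, rose to 77.5, 71.2, 56.2 and 53.4 CPM in the mutants, against 19.8, 25.1 and 26.4 CPM in the controls (log2 fold change 1.44, SE 0.162, adjusted p = 0.00164). *Ebf2*, a helix-loop-helix factor of connective tissue progenitors, was 15.4 to 22.2 CPM in mutants and 4.20 to 5.60 CPM in controls. *Enpp1*, which makes the mineralization inhibitor pyrophosphate, and *Adamts5*, an aggrecan-cleaving protease, also rose, *Enpp1* with a log2 fold change of 2.27. All 5 belong to the core called without any single library. Of the 11 tested genes of the cartilage list, *Sox9* and *Col9a3* fell and *Hapln1*, a link protein of the cartilage matrix, rose (median log2 fold change -0.43). *Col2a1*, the main cartilage collagen, was at 83.5 to 123 CPM in mutants and 82.5 to 150 CPM in controls and did not pass the test (adjusted p = 0.830). Without control replicate 1, 5 members fell and 2 rose, and without any other library 1 or 2 fell and none rose.

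Several genes of the core encode secreted signals or their inhibitors. *Rspo2* and *Rspo4* encode R-spondins, ligands that strengthen Wnt responses, and they moved in opposite directions. *Rspo2* was at 6.49, 4.70, 4.70 and 7.81 CPM in the mutants, against 34.9, 38.7 and 40.1 CPM in the controls (log2 fold change -2.69, SE 0.189, adjusted p = 7.8e-05). *Rspo4* was at 13, 11.6, 11.7 and 14.3 CPM in the mutants, against 0, 0.139 and 0.350 CPM in the controls (log2 fold change 6.15, SE 0.443, adjusted p = 7.8e-05). The *Rspo4* fold rests on 7 counts over the controls and was 7.25 on the log2 scale without control replicate 3. For both genes the groups did not overlap, and the other 2 tested R-spondin genes did not pass the test. *Wif1*, a secreted Wnt inhibitor, was 2.56 to 3.79 CPM in mutants and 0.236 to 0.416 CPM in controls.

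*Bmp4*, a BMP ligand of the ventral foregut mesenchyme, was at 128, 117, 108 and 97.2 CPM in the mutants, against 66.1, 64.2 and 54.1 CPM in the controls (log2 fold change 0.87, SE 0.122, adjusted p = 0.00565). *Grem1*, a secreted BMP antagonist, was 4.76 to 7.77 CPM in mutants and 0.277 to 1.02 CPM in controls, and *Gdf7*, another BMP-type ligand, 2.12 to 4.28 CPM in mutants and 0.0699 to 0.394 CPM in controls. Of 22 genes of the BMP and TGF-beta list, which does not hold *Gdf7*, *Bmp4*, *Grem1* and *Tgfb2* rose and none fell (median log2 fold change 0.20). *Tgfb2* lost its call without control replicate 3 (adjusted p = 0.0656), and 2 to 4 members were called when single libraries were left out.

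The chemokine *Cxcl12*, which draws CXCR4-bearing cells, fell to 120, 143, 137 and 103 CPM in the mutants, against 429, 294 and 325 CPM in the controls (log2 fold change -1.47, SE 0.156, adjusted p = 0.00119). *Jag1*, a Notch ligand, was 34.0 to 49.8 CPM in mutants and 78.0 to 106 CPM in controls (adjusted p = 0.00447), and both calls held without any single library. The Notch target *Hey1* was lower too, at 38.0 to 72.1 CPM in mutants and 83.6 to 102 CPM in controls. *Jag1* and *Hey1* were the 2 of 12 tested Notch genes that fell. Of the 12, 9 had a log2 fold change above 0 (median 0.14), and 2 were called higher without control replicate 1. *Hey1* had an adjusted p of up to 0.155 without control replicate 2 or 3 or mutant replicate 1, 2 or 4. *Etv5*, a transcriptional readout of FGF signals, was 22.5 to 52.6 CPM in mutants and 66.7 to 96.5 CPM in controls. It was the 1 of 18 FGF and ERK genes that fell, while 12 of the 18 had a log2 fold change above 0 (median 0.15). The call of *Etv5* was lost without control replicate 2 or 3 or mutant replicate 1, 2 or 3 (adjusted p up to 0.173). In the retinoic acid list, *Cyp26b1*, which degrades retinoic acid, rose, and in all 1 of 13 tested genes rose and 1 fell. The call of *Cyp26b1* was lost without control replicate 2 or 3 or mutant replicate 1, 2 or 4 (adjusted p up to 0.139).

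Promoters were read for the genes called, because the repressor acts on DNA through the Gli site. RefSeq promoters of build GRCm38.p6, from 250 bases before to 50 bases after a start, were found for 86 of the 130 higher and 31 of the 63 lower genes, and a gene counted when any of its promoters held the letters on either strand. The Gli core CCACCCA was in promoters of 8 of 31 lower genes (25.8%), of 5 of 86 higher genes (5.81%) and of 1257 of all 10922 tested genes with a promoter. The lower genes with the core were *9430037G07Rik*, *Btbd19*, *Cd55*, *Etv5*, *Hsd11b1*, *Kcnc2*, *Ntng2* and *Pgf*, and the higher genes *Adgrg1*, *Grem1*, *Hapln1*, *Kcnj5* and *Shisa3*. By fold and adjusted p together, each of the 8 lower genes lost its call in at least 1 fit without 1 library. Of the 5 higher genes only *Grem1* kept its call in all such fits. The share of 25.8% thus rests on calls that depend on single libraries. The homeobox core TAATTA was in 5.81% of higher, 3.23% of lower and 3.27% of all genes, among them *Msx2*. The E-box CANNTG was in 74.4% of higher, 83.9% of lower and 67.6% of all genes. The T-box core TCACACC was in 2.33% of higher, 3.23% of lower and 4.05% of all genes, the CArG box in 1.16% of higher, 3.23% of lower and 1.56% of all genes, and the interferon response repeat (GAAA, NN, GAAA) in 5.81% of higher, 9.68% of lower and 3.54% of all genes. No motif was tested, and a match describes these windows only. Promoters of 2 higher and 2 lower genes with the Gli core are shown to place the site, with the Gli core and the homeobox core in capitals:
*Grem1* promoter (chr2:113758599-113758898, minus strand, higher in mutants): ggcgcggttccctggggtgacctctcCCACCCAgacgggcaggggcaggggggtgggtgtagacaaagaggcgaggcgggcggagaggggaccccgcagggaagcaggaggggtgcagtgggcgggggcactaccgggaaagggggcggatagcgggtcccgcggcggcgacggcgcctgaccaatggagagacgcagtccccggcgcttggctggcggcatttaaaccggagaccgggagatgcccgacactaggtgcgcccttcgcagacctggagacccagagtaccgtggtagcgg
*Hapln1* promoter (chr13:89540386-89540685, plus strand, higher in mutants): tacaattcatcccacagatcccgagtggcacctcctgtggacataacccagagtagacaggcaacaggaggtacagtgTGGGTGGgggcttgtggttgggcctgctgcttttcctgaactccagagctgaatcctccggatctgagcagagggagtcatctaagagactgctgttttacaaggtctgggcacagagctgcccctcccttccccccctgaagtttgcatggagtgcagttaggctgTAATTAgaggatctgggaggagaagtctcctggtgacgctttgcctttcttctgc
*Etv5* promoter (chr16:22438319-22438618, minus strand, lower in mutants): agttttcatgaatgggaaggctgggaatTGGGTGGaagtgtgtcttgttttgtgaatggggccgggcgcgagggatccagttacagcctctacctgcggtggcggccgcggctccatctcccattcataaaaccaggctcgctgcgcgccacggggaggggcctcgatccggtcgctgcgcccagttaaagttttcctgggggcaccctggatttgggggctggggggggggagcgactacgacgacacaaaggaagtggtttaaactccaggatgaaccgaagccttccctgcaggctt
*Cd55* promoter (chr1:130462695-130462994, minus strand, lower in mutants): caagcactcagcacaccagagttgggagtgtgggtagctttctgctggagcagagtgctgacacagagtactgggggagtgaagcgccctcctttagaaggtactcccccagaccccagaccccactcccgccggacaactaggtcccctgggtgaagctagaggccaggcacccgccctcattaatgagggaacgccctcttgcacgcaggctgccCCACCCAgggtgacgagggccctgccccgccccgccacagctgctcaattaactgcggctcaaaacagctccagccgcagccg
In *Hapln1* and *Etv5* the core is read on the opposite strand as TGGGTGG, and in *Grem1* and *Cd55* as CCACCCA. *Etv5* has another promoter in the set, at chr16:22439521-22439820, which does not hold the Gli core.

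Epithelial genes were higher. All 15 tested members of a list of general epithelial genes had a log2 fold change above 0 (median 1.07), and 9 of them rose, against 1.81% of all genes. *Epcam*, the epithelial adhesion molecule, was at 56.2, 75.7, 57.5 and 55.4 CPM in the mutants, against 30.4, 32.4 and 32.1 CPM in the controls (log2 fold change 0.95, SE 0.130, adjusted p = 0.00505). It kept its call without any single library. The other 8 were the keratins *Krt8*, *Krt18* and *Krt19*, the splicing factors *Esrp1* and *Esrp2*, the epithelial factor *Grhl2*, the tight junction gene *Cldn6* and the protease inhibitor *Spint2*, with log2 fold changes from 0.64 to 1.99. *Cdh1* (E-cadherin) was 61.5 to 127 CPM in mutants and 18.8 to 51.3 CPM in controls and did not pass the test (adjusted p = 0.0754). *Mal2*, a gene of apical membrane traffic, belongs to the core with 25.2 to 35.5 CPM in mutants and 13 to 15.8 CPM in controls. When single libraries were left out, 12 members were called without control replicate 1 and 1 without control replicate 2 or control replicate 3. Removing mutant replicate 1, 2, 3 or 4 left 3, 4, 2 or 4 members called. Library size scaling, upper-quartile scaling or a sex covariate left 6, a replicate block 3 and log2 TPM with either pseudocount 1, while DESeq2 called 11 and the fit of all 13 libraries 12.

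Among 11 tested endodermal transcription factors, *Foxa1*, *Foxa2* and *Sox2* rose and none fell (median log2 fold change 1.18). *Sox2*, which marks dorsal foregut and esophageal epithelium, was at 12.7, 16.1, 7.73 and 8.04 CPM in the mutants, against 4.49, 2.42 and 4.34 CPM in the controls, and its call was lost without control replicate 2 or 3 or mutant replicate 1 or 2 (adjusted p up to 0.141). *Nkx2-1*, which marks the respiratory epithelium, was at 40.0, 29.1, 52.7 and 39.6 CPM in the mutants, against 24.3, 35.1 and 40.1 CPM in the controls, and the groups overlapped (log2 fold change 0.28, adjusted p = 0.483). *Trp63*, a factor of basal and stratified epithelia, was uneven within both groups, at 5.50, 51.6, 8.65 and 7.59 CPM in the mutants, against 19.2, 0.208 and 0.560 CPM in the controls. The list had 5 members called without control replicate 1, and from 0 (control replicate 3 or mutant replicate 1 left out) to 2 without each other library.

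**Figure D4:**
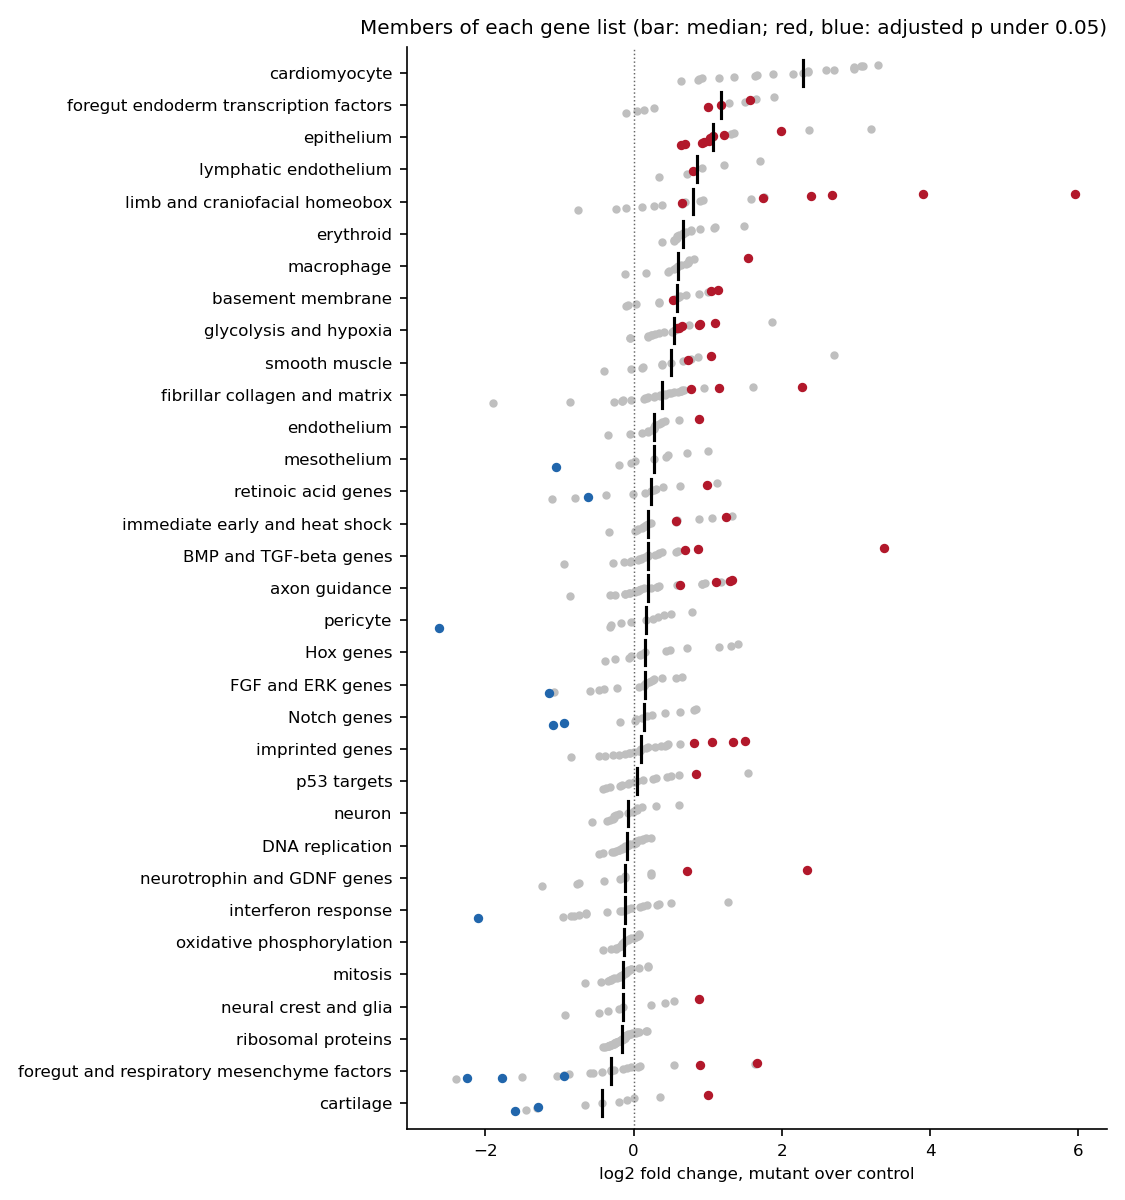
Log2 fold change (x axis, mutant over control) of every tested member of the gene lists shown (rows). The list median is a black bar, and members with an adjusted p under 0.05 are in red (higher) or blue (lower). The medians ran from -0.43 for cartilage to 2.29 for cardiomyocyte genes, none of which passed the test.

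Matrix genes rose in part. *Col6a2* and *Col6a3* encode chains of the microfibrillar collagen VI, and *Col6a3* was at 31.4, 29.7, 18.1 and 26.3 CPM in the mutants, against 8.75, 4.50 and 3.08 CPM in the controls. *Col4a5* and *Col4a6*, basement membrane collagen genes that start 1309 bases apart on opposite strands of the X chromosome, rose with log2 fold changes of 1.14 and 1.05. *Emilin2*, a glycoprotein of elastic fibers, was at 24.0, 29.7, 26.1 and 38.2 CPM in the mutants, against 8.36, 8.59 and 8.53 CPM in the controls. The integrin *Itga9*, a receptor for matrix ligands, was at 158, 143, 153 and 170 CPM in the mutants, against 74.2, 73.6 and 81.2 CPM in the controls. *Col6a3*, *Col4a5*, *Emilin2* and *Itga9* kept an adjusted p under 0.05 without any single library, whereas *Col4a6* and *Col6a2* did not without control replicate 3 (0.0656 and 0.0737). Of the lists, 3 of 30 fibrillar matrix genes and 3 of 15 basement membrane genes rose and none fell (medians 0.39 and 0.58). Without control replicate 1 these counts were 15 and 11, and without any other library 1 to 3 and 1 or 2. For 3 long matrix transcripts control replicate 1 lay within the range of the mutants and the other controls below it. *Fn1* was 1020 to 1320 CPM in mutants and 1260, 504 and 461 CPM in controls, *Fbn2* 540 to 625 CPM in mutants and 616, 229 and 248 CPM in controls, and *Hspg2* 193 to 298 CPM in mutants and 239, 77.5 and 76.2 CPM in controls. With the trend on transcript length removed from each library, 3 members of each list rose, and *Col14a1*, a fibril-associated collagen called with all 7 libraries, was not among them.

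Genes of glycolysis and the hypoxia response were mostly higher. Of 22 tested, 20 had a log2 fold change above 0 (median 0.54), 6 rose and none fell, against 1.81% of all genes. *Pdk1*, which turns pyruvate away from the mitochondria, was at 70.4, 88.1, 74.0 and 82.9 CPM in the mutants, against 36.4, 51.1 and 41.1 CPM in the controls (log2 fold change 0.88, adjusted p = 0.00906), and lost its call without control replicate 3 (adjusted p = 0.0681). *Ldha*, lactate dehydrogenase, was 992 to 1240 CPM in mutants and 639 to 730 CPM in controls, and the glucose transporter *Slc2a1* 170 to 226 CPM in mutants and 111 to 149 CPM in controls. The other 3 were the oxygen sensor *Egln3*, the phosphofructokinase *Pfkl* and *Ndrg1*. *Vegfa*, a textbook hypoxia target, overlapped between the groups (log2 fold change -0.05, adjusted p = 0.936). With control replicate 1, 2 or 3 left out 7, 4 and 0 members were called, and with mutant replicate 1, 2, 3 or 4 left out 2, 2, 1 and 3. No gene of 20 in oxidative phosphorylation passed the edgeR test (median -0.13), none had an unadjusted p under 0.05, and DESeq2 and limma-voom called none.

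Several of the higher genes are imprinted, that is, expressed from 1 parental copy. *Asb4*, which encodes an ankyrin repeat protein of ubiquitin ligases, was at 185, 136, 220 and 179 CPM in the mutants, against 61.1, 70.6 and 58.1 CPM in the controls (log2 fold change 1.51, SE 0.156, adjusted p = 0.00113). Of 26 tested imprinted genes, *Asb4*, *Zim1*, *Dlk1* and *Peg10* rose and none fell (median 0.10), and 2 to 7 were called without 1 library, with 7 without control replicate 1 and 2 without control replicate 3 or mutant replicate 1 or 4. Their neighborhoods were looked up after these values were seen. *Asb4* and *Peg10* lie in 1 cluster of chromosome 6 with *Calcr*, the calcitonin receptor, which was 5.44 to 7.48 CPM in mutants and 1.18 to 2.44 CPM in controls and lost its call without control replicate 2 or 3 (adjusted p up to 0.0691). Between *Calcr* and *Asb4* (chr6:3685680-5433022, mm10) 11 genes were tested, and only these 3 passed the test. *Asb4* kept its call without any single library, and *Peg10* lost it without control replicate 2 or 3 or mutant replicate 1, 3 or 4 (adjusted p up to 0.181). *Dlk1*, of the Notch ligand family, was at 94.0, 66.2, 65.7 and 68.4 CPM in the mutants, against 19.8, 43.9 and 23.1 CPM in the controls. At the other end of its cluster on chromosome 12, *Dio3*, which inactivates thyroid hormone, was 1.43 to 2.66 CPM in mutants and 0.0693 to 0.490 CPM in controls. Both are expressed from the paternal copy, and of the 7 tested rows between them (chr12:109452823-110281097) no other passed the test. *Dlk1* lost its call without control replicate 3 or mutant replicate 1 or 4, and *Dio3* without control replicate 2 or mutant replicate 1 or 3 (adjusted p up to 0.12 and 0.119). The maternally expressed *Meg3* had a log2 fold change of -0.39 (adjusted p = 0.363). *Igf2* and *H19*, among the most abundant rows, did not overlap between the groups but did not pass the test (log2 fold changes 0.43 and 0.37, adjusted p = 0.164 and 0.199).

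Genes of nerve guidance and excitability were among the higher ones. *Gal*, which encodes the neuropeptide galanin, was at 55.0, 27.9, 58.5 and 51.0 CPM in the mutants, against 4.02, 9.56 and 5.46 CPM in the controls (log2 fold change 2.91, SE 0.320, adjusted p = 0.00146). The neurotrophin receptor *Ntrk2* was 25.5 to 29.2 CPM in mutants and 2.03 to 8.52 CPM in controls. The list of neuronal genes itself had none of 17 members called (median -0.07, with summed CPM of 171 to 211 in mutants and 133 to 231 in controls), and neither DESeq2 nor limma-voom called any, with 1 unadjusted p under 0.05 in edgeR. Without control replicate 1, 1 neuronal gene was called higher and 2 lower. In the axon guidance list *Sema3a*, *Sema3e*, *Plxna4* and *Ephb2* rose, 4 of 28, and none fell (median 0.19). With control replicate 1 left out 10 members were called, with either other control left out none, with 1 mutant left out 1 to 3, and with the length trend removed 2. Of 45 tested genes with symbols starting in Kcn, a family looked up after the values were seen, 5 potassium channel genes rose and 2 fell. *Kcnj5*, an atrial potassium channel subunit, was 8.75, 37.5, 11.1 and 11.8 CPM in the mutants, against 5.12, 2.49 and 1.47 CPM in the controls, and was highest in mutant replicate 2, the library with the most heart transcripts. Its call was lost without control replicate 2 or 3 or mutant replicate 1, 3 or 4 (adjusted p up to 0.185).

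Some of the remaining core genes have known roles in vessels and phagocytes. *Ccbe1*, a cofactor of lymphatic growth, was 25.6 to 42.7 CPM in mutants and 9.42 to 12.6 CPM in controls, and the scavenger receptor *Stab1* 33.2 to 54.0 CPM in mutants and 14.8 to 19.8 CPM in controls. The lymphatic receptor *Flt4* rose to 79.0, 73.9, 58.0 and 70.3 CPM in the mutants, against 40.3, 41.9 and 39.2 CPM in the controls, the 1 of 6 lymphatic genes that did (median 0.86), and its call was lost without control replicate 3 (adjusted p = 0.063). *Mrc1* was the 1 of 15 macrophage genes that rose (median 0.60), at 11.8 to 23.8 CPM in mutants and 5.76 to 6.51 CPM in controls, and was also lost without control replicate 3 (adjusted p = 0.0603). *Mrc1* and *Stab1* are made by macrophages and by some endothelial cells. The general endothelial list had 1 of 17 members called, *Kdr*, the VEGF receptor (median 0.28), which lost its call without control replicate 2 or 3 (adjusted p up to 0.0603). *Stard8* and *Dock5*, regulators of small GTPases, *Kctd12*, a GABA receptor subunit partner, and *Rxfp2*, a relaxin family receptor, also belong to the core, with log2 fold changes of 1.72, 1.84, 1.47 and 3.74. The value for *Rxfp2* rests on 10 counts over the controls and was 4.78 without control replicate 2.

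Of the lower genes in the core, *Clca3a1*, a chloride channel accessory gene with close relatives, was at 16.8, 18.3, 13.7 and 15.5 CPM in the mutants, against 44.3, 56.4 and 56.0 CPM in the controls (log2 fold change -1.70, SE 0.140, adjusted p = 0.000267). *Tril*, an accessory protein of Toll-like receptor signaling, was 49.9 to 80.0 CPM in mutants and 153 to 203 CPM in controls. *AW551984* was 34.6 to 43.1 CPM in mutants and 82.7 to 123 CPM in controls. *2010111I01Rik* (17.3 to 21.7 CPM in mutants, 34.1 to 48.2 CPM in controls) overlaps exons of the noncoding *Gm16907* on the other strand, which was also lower. The libraries do not keep strand, so the reads of these 2 cannot be told apart. *Clca3a1* and *Tril* also overlap noncoding exons on the other strand, and *Duxbl2* has near-identical copies that can share reads. *Iigp1*, an interferon-induced GTPase, was the 1 of 20 interferon response genes that fell, with a list median of -0.12. *Rgs5*, a pericyte gene, was 19.9 to 31.9 CPM in mutants and 335, 75.3 and 73.5 CPM in controls, the 1 of 11 pericyte genes called, and the epicardial and lung mesenchyme factor *Tcf21* was 27 to 49.8 CPM in mutants and 62.7 to 104 CPM in controls, the 1 of 9 mesothelium genes called. *Rgs5* lost its call without mutant replicate 1 or 4 (adjusted p up to 0.0584) and *Tcf21* without control replicate 2 or 3 or mutant replicate 2 or 3 (up to 0.138).

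Rows without a gene symbol and noncoding genes were counted apart. Of the 63 lower genes, 18 were rows named only by a sequence accession, and of the 130 higher genes 2 were, while 1314 of the 15376 tested rows had such names. Of 189 tested long intergenic RNAs, 5 were lower and none higher, among them *Mir17hg*, the host of the miR-17 cluster, and *Carmn*. *Dnm3os*, the host of miR-199a and miR-214, was 36.5 to 55.3 CPM in mutants and 59.5, 170 and 109 CPM in controls. The calls of *Mir17hg*, *Carmn* and *Dnm3os* were each lost without any library but control replicate 1 (adjusted p up to 0.193). Rows named by accession together held 19.9% to 24.5% of all counts in mutants and 23.7% to 25.9% in controls, and *Lars2* held a further 2.61% to 6.84% in mutants and 2.32% to 3.33% in controls. Without these rows 123 genes were higher and 51 lower.

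Blood and heart transcripts varied widely between single libraries. Globin genes held 0.857% to 3.11% of counts in the mutants and 0.331% to 2.11% in the controls, a 9.40-fold range over the 7 libraries. Summed over the 16 tested erythroid genes, CPM were 16300, 8730, 30700 and 23600 in the mutants, against 3330, 11700 and 20900 in the controls, and no member passed the edgeR test (1 had an unadjusted p under 0.05, and DESeq2 and limma-voom called none). All 16 had log2 fold changes above 0 (median 0.67). Without mutant replicate 2, alone or together with control replicate 1, 1 erythroid gene was called higher. The same count came without the low-count filter and with the length trend removed. The 21 tested cardiomyocyte genes summed to 1390, 5770, 1520 and 1300 CPM in the mutants, against 1170, 439 and 334 CPM in the controls. All 21 had log2 fold changes above 0 (median 2.29), and none passed the main edgeR test (16 had an unadjusted p under 0.05, DESeq2 called 2 and limma-voom none). Without the low-count filter 7 were called. A replicate block, a filter of at least 10 counts in every library and removal of the length trend each gave 1. Leaving out control replicate 1 gave 14, mutant replicate 2 gave 1, and both together 16. Control replicate 1 lay just below the lowest mutant, and mutant replicate 2 far above all other libraries. Skeletal muscle genes were low throughout, with 8.37 to 14.7 CPM in mutants and 9.58 to 22.1 CPM in controls summed over 5 genes, none of which passed the test (1 unadjusted p under 0.05). Of the smooth muscle list, *Myh11*, the smooth muscle myosin, and *Myocd* rose, 2 of 13 (median 0.51). *Myh11* was 29.7 to 55.3 CPM in mutants and 16.4 to 25.7 CPM in controls, with an adjusted p of up to 0.175 without 1 library, and between 0 and 3 members were called without 1 library (3 without control replicate 1, and 0 without control replicate 3 or mutant replicate 1 or 3) and 0 with the length trend removed. The part of heart, blood and muscle cells in the other results was not tested.

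**Figure D5:**
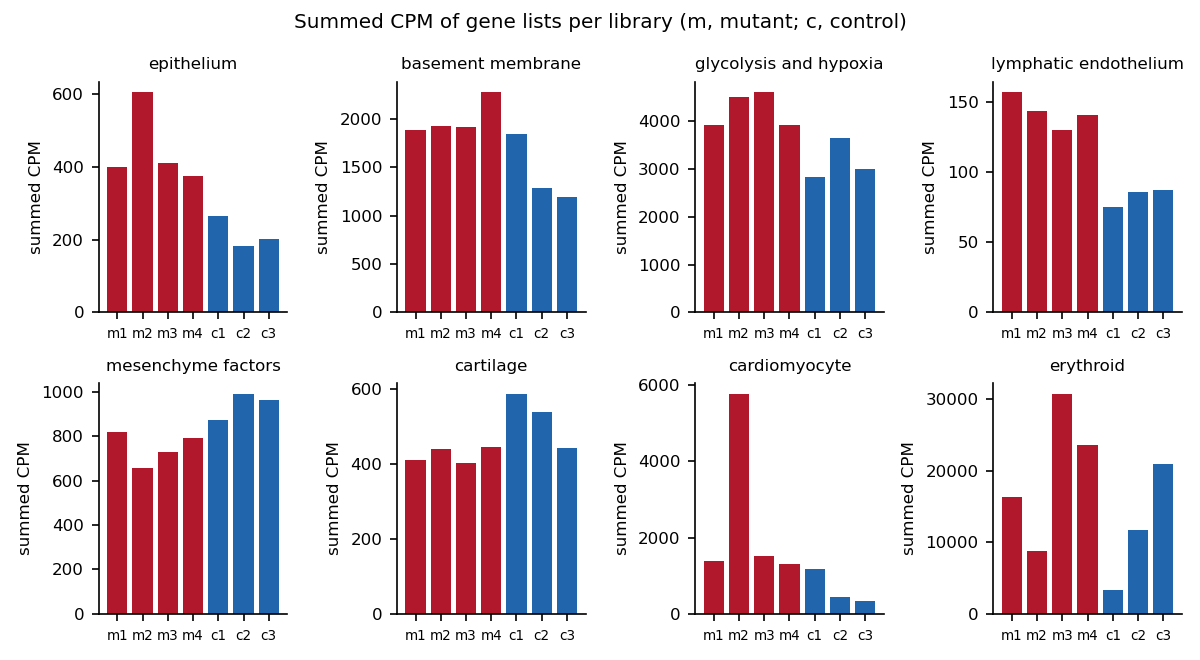
Summed CPM (y axes, from 0) of the tested members of 8 gene lists in each library (x axes; red, mutants m1 to m4; blue, controls c1 to c3). Lymphatic genes summed to 130 to 157 CPM in mutants and 75.2 to 87.1 CPM in controls and epithelial genes to 376 to 605 CPM in mutants and 182 to 264 CPM in controls, while erythroid sums overlapped.

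Lists of housekeeping programs had no member called with all 7 libraries. None of 25 DNA replication genes (median -0.09), 24 mitosis genes (median -0.14), 47 ribosomal protein genes (median -0.15), 20 cholesterol synthesis genes (median 0.16) and 15 genes of the unfolded protein and amino acid response (median -0.06) had an adjusted p under 0.05 in edgeR, while 2, 6, 0, 1 and 1 of them had an unadjusted p under 0.05. In the same order, 15, 21, 40, 4 and 8 of them had a log2 fold change below 0. DESeq2 called 2 of the mitosis genes lower and no member of the other 4 lists, and limma-voom called none. Without control replicate 1, 1 mitosis gene was called higher and 2 lower and 1 ribosomal protein gene lower, and the fit of all 13 libraries called 1 mitosis gene lower. Antigen presentation genes (8 tested, median 0.10) and markers of other endoderm organs (6 tested, median 0.82) had no member called by edgeR, DESeq2 or limma-voom and none with an unadjusted p under 0.05. Of 17 tested p53 targets only *Plk2* rose, to 75.3 to 85.2 CPM in mutants against 38.8 to 56.7 CPM in controls, and not without control replicate 3 (adjusted p = 0.076). *Klf4* and *Klf6* were the 2 of 17 immediate early and heat shock genes that rose, and both calls were lost without control replicate 2 or 3 or mutant replicate 1 or 2 (adjusted p up to 0.123 and 0.203). Of 9 neural crest and glial genes *Mbp* rose, at 15.8 to 20.4 CPM in mutants and 7.97 to 11.7 CPM in controls, and its call held without control replicate 1 and with no other library left out (adjusted p up to 0.155).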

How the data were processed

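The deposited estimated counts per gene were made by the authors with RSEM 1.3.0, per the submitters' processing notes, from trimmed single-end reads aligned with Bowtie2 to mm10, and the deposited TPM values come from the same quantification. The sources used here name no gene annotation for this step. RNA was amplified before library preparation without keeping strand. The counts were whole numbers as deposited, and genes with low counts were removed with filterByExpr. The main test was edgeR 4.0.16 (R 4.3.3) with TMM factors, the quasi-likelihood test over the 7 E11.5 libraries and Benjamini-Hochberg adjustment over all 15376 genes tested. The thresholds were those in the methods of the study (log2 fold change of at least 1, adjusted p of at most 0.05). The results section of the study gives the same fold with a p under 0.05 and names no adjustment, so its counts may rest on another threshold. CPM use TMM-scaled library sizes. The script was tested on simulated data. TPM served only for the label checks and in alternatives with a pseudocount of 1 or 0.1, and E10.5 libraries only in a fit of all 13. Alternatives also used DESeq2 1.42.0 and limma 3.58.1. Intervals cover counting error only, since reads carry no molecular identifiers. Gene positions are from GENCODE vM21 (GRCm38).

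The text names genes called in every comparison without 1 library. It also names called genes of smallest adjusted p or largest fold. For these the average log2 CPM had to be at least 2 and the groups had not to overlap, so their lack of overlap was fixed by the choice. Up to 6 members of each of 39 gene lists, genes that set single libraries apart, and checks of the labels are named as well. The libraries, genes and lists were chosen with earlier results of these data known. Families, neighboring genes, promoter motifs, low-count ratios and list members named for not passing the test were picked after their values were seen. Some genes are not reported here.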

Additional observations from a re-analysis of the deposited data

Results flagged for a closer look

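Among 209 groups of 4 mutant libraries examined (summed CPM of the gene lists and CPM of genes named), 17 had 1 library set apart, with a gap to its nearest neighbor of more of the group's whole range than Dixon's 95% critical value for 4 samples. Chance gives about 1 in 20 in groups that are independent and not chosen by their values. These groups are neither, since some genes were named because they set a library apart and some list sums include genes counted on their own, so the number 17 was not read against it. Mutant replicate 2 was the library set apart in 9 of the 17.

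In mutant replicate 2, cardiomyocyte genes summed to 5770 CPM (1300 to 1520 CPM in the other mutants) and epithelial genes to 605 CPM (376 to 412 CPM). The same library was set apart for *Epcam* at 75.7 CPM (55.4 to 57.5), *Cdh1* at 127 CPM (61.5 to 64.1), *Trp63* at 51.6 CPM (5.50 to 8.65), *Klf5*, another epithelial factor, at 26.3 CPM (4.69 to 8.14), *Kcnj5* at 37.5 CPM (8.75 to 11.8) and the calcium channel subunit *Cacna2d2* at 99.9 CPM (42.6 to 48.8). It was lowest for *Wt1*, a mesothelial factor, at 13.6 CPM (20.3 to 21.1).

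Mutant replicate 4 was highest for the basement membrane list at 2270 CPM (1880 to 1920) and for *Col4a1* at 206 CPM (142 to 152), and lowest for *Krt7* at 11.9 CPM (16.7 to 17.6). Mutant replicate 3 was highest for the ribosomal protein list at 26500 CPM (17600 to 19100), for *Hey1* at 72.1 CPM (38 to 43.5) and for *Hsd11b1* at 0.618 CPM (0.112 to 0.151). Mutant replicate 1 was highest for *Dlk1* at 94 CPM (65.7 to 68.4) and for *Aldh1a7* at 10.2 CPM (6.06 to 6.62).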

How the results depend on the processing

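With all 7 libraries 130 genes were higher and 63 lower in the mutant trachea. Directions were compared between fits for most of the genes named in the text and not for the rest. None of the compared genes that passed the test changed its direction under any alternative. Of the genes that did not pass, *Col2a1* had a log2 fold change of -0.09 that ran from -0.26 to 0.20 when single libraries were left out, and *Xist* 0.44 that ran from -0.38 to 8.76. Leaving out 1 library gave 35 (control replicate 3) to 327 (control replicate 1) higher genes and 15 (control replicate 2 or 3) to 192 (control replicate 1) lower genes. Without control replicate 1 and mutant replicate 2 together there were 312 and 173. DESeq2 called 219 and 141, limma on log2 TPM 47 and 41 with a pseudocount of 1 and 51 and 38 with 0.1. Without a filter on low counts 96 genes were lower, and in the fit of all 13 libraries 103 were. The adjusted p alone gave 279 and 106, and an unadjusted p with the fold threshold 392 and 337. Other scaling factors, the stricter filter, limma-voom and a sex covariate stayed within 1.5 times of both counts, as did 2 alternatives chosen after seeing the data, removal of rows named by accession with *Lars2* and removal of the trend on transcript length. The same replicate numbers in both groups were not found to pair the libraries, since the correlations of deviations were -0.102, -0.132 and 0.202, and a fit with a replicate block called 69 and 36. Low counts limit genes such as *Pitx1* and *En1*, whose ratios have wide counting intervals. With 3 controls, of which 1 stands apart, the number of genes called rests on which controls enter.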
